A study of Triticum aestivum with 14 samples.

Results

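The regions described here are stretches of wheat chromatin that were called accessible after vernalization in leaf, axillary bud and shoot apex and in none of these tissues before it. They are called co-gained regions below. They were selected on presence and absence in the 6 deposited lists of accessible chromatin regions (ACRs): the ACRs of all lists were merged wherever they overlapped by at least 1 bp, and a merged region was kept if each of the 3 vernalized lists and none of the 3 unvernalized lists had an ACR in it. This left 279 co-gained regions of 289328 merged regions, or 0.0964%. Because presence in the lists made the choice, that number and the widths below are descriptions, and no test was made. Gained and lost mean a change of call between lists. The lists carry no signal, so a missing call does not show that the chromatin was closed.

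Vernalization is the long exposure to cold that a winter cereal needs before it can flower, and in wheat it acts through a small set of flowering genes whose chromatin changes with the cold. ACRs are stretches of DNA that the transposase Tn5 can reach, and they often hold promoters and distal regulatory elements to which transcription factors bind. A region that becomes accessible in several organs at once is of interest here because the 3 organs differ greatly: the leaf is mature tissue, the axillary bud holds a side-shoot meristem and the shoot apex is the meristem that forms the inflorescence.

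The plants were of the winter wheat cultivar AK58, an allohexaploid with A, B and D sub-genomes. Vernalized leaf, vernalized axillary bud and vernalized shoot apex came from plants kept for 1 month in a cold chamber at 4°C and then for 1 day in the greenhouse, and leaf, axillary bud and shoot apex of unvernalized plants were taken 2 weeks after germination, all with days of 16 h. By the published description the vernalized plants had also grown for 2 weeks before the cold, so they were older when sampled and cold and plant age cannot be told apart, and neither the number of plants nor any pooling is stated. Of the 14 samples in 7 groups of 2, input DNA among them, 1 list for each of the 6 combinations of tissue and condition was analysed here. The lists carried positions only, so depth is unknown and there was no replicate spread. Shares are given with 95% Wilson intervals, which cover counting error only and treat neighbouring regions as if they were independent.

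The first question was how rare a gain shared by all tissues was. Of the 47614 merged regions called in all 3 vernalized lists, the 279 co-gained regions made up 0.586%. Another 2242 were called in 1 unvernalized list, 8935 in 2 and 36158 in 3. The regions called in every tissue after vernalization were thus, with few exceptions, already called in at least 1 tissue before it. Of the 2242 regions that a single unvernalized list kept out of the co-gained set, 1527 were called in axillary bud, 410 in leaf and 305 in shoot apex. Axillary bud had the longest of the unvernalized lists, with 175599 ACRs against 132696 in shoot apex and 128914 in leaf.

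Gains in single tissues were far more frequent. Leaf gained 18.7% of all merged regions, axillary bud 10% and shoot apex 19.4%. Pairs of tissues shared 6001 gained regions between axillary bud and shoot apex, 2728 between leaf and shoot apex and 1777 between leaf and axillary bud. The 279 co-gained regions, in which the remaining tissue had gained the region too, were 4.65% of the first, 10.2% of the second and 15.7% of the third of these sets. Against the shares of all merged regions, this was below 18.7% for leaf, near 10% for axillary bud and below 19.4% for shoot apex. For the pair of axillary bud and shoot apex, leaf had no ACR in either condition in 4788 of the 6001 regions (79.8%). For leaf and shoot apex, axillary bud had an ACR in both conditions in 1527 of the 2728 (56.0%). For leaf and axillary bud, shoot apex had an ACR in neither condition in 729 of the 1777 (41.0%) and had lost it in 464 (26.1%). The state of the remaining tissue therefore differed from pair to pair: leaf mostly had no ACR, and axillary bud mostly had one in both conditions. These shares depend on the length of the lists, since a region enters the merged set only if some list called it.

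The mirror set served as a comparison. Regions with an ACR in every unvernalized list but without a vernalized one numbered 257, or 0.0888% of all merged regions.

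Within the co-gained regions the median covered length was the same in the 3 tissues in the plot of covered length by tissue. Vernalized leaf covered between 204 and 1950 bp of a region, with a median of 350 bp and quartiles of 250 and 546.5 bp. Vernalized axillary bud covered between 219 and 1750 bp, with a median of 350 bp and quartiles of 250 and 550 bp. For vernalized shoot apex the range was 202 to 2142 bp, the median 350 bp and the quartiles 250 and 550 bp. All 3 medians lay below that of the whole list, which was 408 bp in vernalized leaf, 550 bp in vernalized axillary bud and 450 bp in vernalized shoot apex. The gap to the whole list was widest in axillary bud, where accessible regions were otherwise the broadest. With lists of equal size the medians of the regions were 350 bp in vernalized leaf and 450 bp in vernalized axillary bud and vernalized shoot apex.

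**Figure D1:**
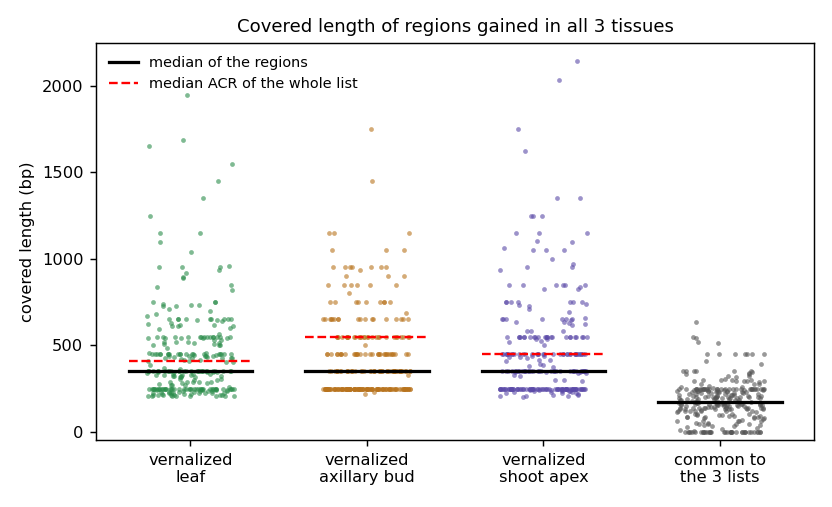
Base pairs of each co-gained region covered by each vernalized list, and the longest stretch covered by all 3 lists at once (1 point per region, 279 regions; black lines are medians of the regions, red dashed lines the median ACR width of the whole list). The medians are 350 bp in each tissue and 174 bp for the common stretch, and the red lines lie at 408, 550 and 450 bp.

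Co-gained regions were also narrower than regions that were called throughout. Over the 36158 regions called in all 6 lists, the median covered length was 700 bp in vernalized leaf, 1450 bp in vernalized axillary bud and 1112.5 bp in vernalized shoot apex. The regions lost in all 3 tissues were narrow too, with medians in unvernalized plants of 327 bp in leaf, 291 bp in shoot apex and 450 bp in axillary bud, each below that of its whole list (445, 433 and 650 bp). Both sets are defined by the absence of overlap with other lists, which a narrow ACR meets more easily than a broad one, and the part of this in the widths was not tested.

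Many co-gained ACRs sat at the low end of the width range. In vernalized axillary bud 41.4% of them (35.8% to 47.2%) were at most 250 bp wide, against 23.8% (23.6% to 24.0%) of all ACRs of that list. The share was 35.2% (29.9% to 40.9%) against 26.2% (25.9% to 26.4%) in vernalized shoot apex. In vernalized leaf it was 30.5% (25.4% to 36.1%) against 28.6% (28.4% to 28.9%), so that the intervals overlapped there. At least 1 vernalized list covered 250 bp or less in 190 of the 279 regions. All 3 lists did so in 18 regions, and all 3 covered at least 500 bp in 13. In 110 regions no vernalized list reached 500 bp. ACRs of at least 500 bp in every tissue were therefore found in few of the co-gained regions.

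No tissue was the broadest throughout. Vernalized leaf covered most in 84 regions, vernalized shoot apex in 83 and vernalized axillary bud in 74, with ties in 38. Vernalized leaf covered least in 94 regions, vernalized axillary bud in 71 and vernalized shoot apex in 62, with ties in 52. The longest coverage was at the median 1.89 times the shortest, more than 2 times in 132 regions and up to 8.13 times. Only 4 regions had the same coverage in the 3 tissues, and in each of these it was 250 bp. A list nearly always had a single ACR in a co-gained region. There were 2 ACRs in 3 regions for vernalized leaf, in 6 for vernalized axillary bud and in 5 for vernalized shoot apex.

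Since merging can chain ACRs that do not meet, the stretch covered by all 3 vernalized lists at once was measured. It existed in 242 of the 279 co-gained regions (86.7%, 82.3% to 90.2%) and was absent from 37. The corresponding share was 96.0% (95.8% to 96.2%) for regions called in all 6 lists, and for the 3 unvernalized lists in regions lost in all tissues it was 82.5% (77.4% to 86.6%). With the 37 regions counted as 0, the longest common stretch of a co-gained region had a median of 174 bp (quartiles 93.5 and 250 bp, highest 634 bp). It made up a median of 28.0% of the merged region, close to the 26.0% of the regions called in all 6 lists. The merged co-gained regions themselves had a median width of 660 bp and ranged from 250 to 2321 bp.

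The tissues met in pairs more often than all together. Vernalized axillary bud and vernalized shoot apex overlapped in 273 regions, vernalized leaf and vernalized axillary bud in 265, and vernalized leaf and vernalized shoot apex in 262. The Jaccard index, that is the shared length divided by the total length that the lists of a pair cover, had a median of 0.515 over the co-gained regions for axillary bud with shoot apex, 0.482 for leaf with axillary bud and 0.405 for leaf with shoot apex. In regions called in all 6 lists these medians were 0.698, 0.449 and 0.448. By this index axillary bud and shoot apex, and by less leaf and shoot apex, coincided less in co-gained regions, and leaf and axillary bud slightly more. The share of regions in which a pair of lists did not overlap at all was higher in co-gained regions for every pair. It was 5.02% (3.01% to 8.25%) for leaf with axillary bud, against 1.07% (0.972% to 1.18%) in regions called in all 6 lists. For leaf with shoot apex the shares were 6.09% (3.84% to 9.54%) and 3.26% (3.09% to 3.45%), and for axillary bud with shoot apex 2.15% (0.989% to 4.61%) and 0.313% (0.260% to 0.376%). The regions called in all 6 lists were covered over a greater length, and narrow ACRs miss each other more easily. The part of width in these differences was not tested. Regions lost in all 3 tissues were not compared pair by pair, so these shares are not shown to be particular to co-gained regions.

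The peak ends also bear on these overlaps and on the equal medians of covered length. The bins into which the authors divided peaks give widths such as 250, 350 and 450 bp. Such a width was found in 43.6% of co-gained ACRs in vernalized leaf, 97.9% in vernalized axillary bud and 73.9% in vernalized shoot apex, and in 42.6%, 95.6% and 77.6% of all ACRs of these lists. In the unvernalized lists the shares were 33.9% in leaf, 12.9% in shoot apex and 94.6% in axillary bud. The lists of shoot apex before and after vernalization thus differed in how ACR ends fell, and the part of this in the shoot apex gains was not tested.

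The regions with the longest common stretch are those for which accessibility in all tissues rests on most sequence (coordinates, 1-based, are on IWGSC RefSeq v1.0). No annotation or sequence of that build was used here, so genes, exons and motifs are not given. The longest, 634 bp, lay on chromosome 4B from 106645475 to 106646108, in a region that reached from 106645441 to 106646261. Vernalized leaf covered 821 bp of it, vernalized axillary bud 650 bp and vernalized shoot apex 735 bp. This region stood alone: its closest neighbour in any list was an ACR of unvernalized leaf 149495 bp away, and no list had an ACR between 1 and 100 kb from it. A second region of chromosome 4B, 7566783 bp from it, had the fourth longest common stretch, 517 bp from 99078108 to 99078624. There vernalized leaf covered 649 bp and the other vernalized tissues 550 bp each, and an ACR of unvernalized axillary bud lay 349 bp away.

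On chromosome 6B the common stretch ran over 550 bp from 143754763 to 143755312. Vernalized leaf covered 1041 bp of that region, vernalized axillary bud 650 bp and vernalized shoot apex 550 bp. The region on chromosome 3A had a common stretch of 544 bp from 647053758 to 647054301, with 544, 850 and 1150 bp covered in vernalized leaf, axillary bud and shoot apex. Here the tissue order was the reverse of that on 6B. Both regions had an unvernalized ACR in the surroundings, at 1050 bp on 6B (axillary bud) and at 75900 bp on 3A (shoot apex). The fifth region, on chromosome 6D, shared 514 bp from 68360182 to 68360695, with 650 bp covered in vernalized leaf, 550 bp in vernalized axillary bud and 750 bp in vernalized shoot apex. An ACR of unvernalized shoot apex lay only 18 bp from it.

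The widest merged region shows the opposite case. It lay on chromosome 7D from 575591218 to 575593538 (2321 bp), and vernalized leaf covered 504 bp, vernalized axillary bud 800 bp and vernalized shoot apex 2142 bp of it. No base was covered by all 3 lists.

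How far the co-gained regions lay from chromatin that was called accessible before vernalization was asked next. The closest unvernalized ACR of any tissue was at a median of 1437 bp (95% order-statistic interval 959 to 1996 bp), with quartiles of 325 and 6430.5 bp. The closest vernalized ACR outside the region was at a median of 628 bp (515 to 808 bp), with quartiles of 257 and 2253 bp. Of the 279 regions, 124 (44.4%, 38.7% to 50.3%) had an unvernalized ACR within 1 kb and 220 (78.9%, 73.7% to 83.2%) within 10 kb. A vernalized ACR lay within 1 kb of 169 (60.6%, 54.7% to 66.1%) and within 10 kb of 251 (89.96%, 85.9% to 93.0%). Only 12 regions (4.30%) had no unvernalized ACR within 100 kb. Most co-gained regions thus had an ACR called before vernalization within 10 kb. The rule keeps unvernalized ACRs from overlapping the regions, and these distances come from the lists that chose them, so they are a description.

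**Figure D2:**
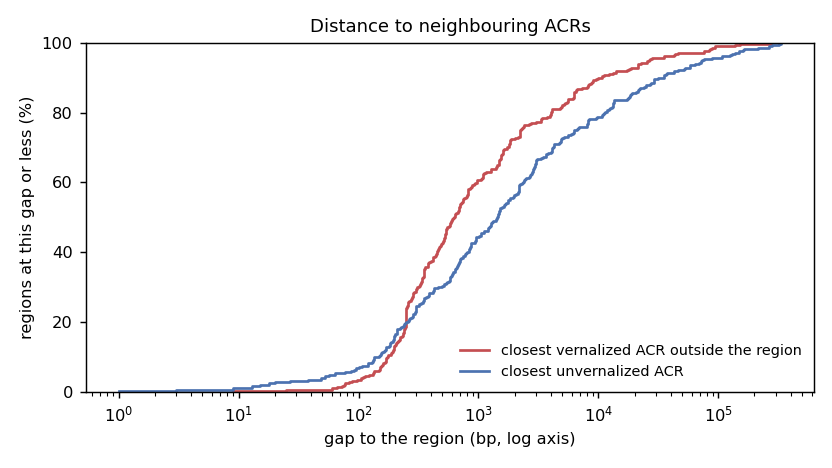
Share of the 279 co-gained regions with a neighbouring ACR at a given gap or less (gap in bp on a log axis), for the closest vernalized ACR outside the region and for the closest unvernalized ACR. At 1 kb the curve stands at 60.6% for vernalized and 44.4% for unvernalized ACRs, and at 200 bp at 13.3% and 16.1%.

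The order was the same list by list. Vernalized leaf had its closest ACR outside the region at a median of 2089 bp (1482 to 3067 bp) and unvernalized leaf at 4462 bp (3379 to 6606 bp). The medians were 1818 bp (1346 to 2531 bp) in vernalized axillary bud and 2817 bp (2054 to 3648 bp) in unvernalized axillary bud, whose intervals overlap. For vernalized shoot apex the median was 1888 bp (1486 to 2824 bp), against 4911 bp (3093 to 7821 bp) in unvernalized shoot apex. Taken region by region, the vernalized list had the closer ACR in 164 regions and the unvernalized list in 115 for leaf. The numbers were 170 and 107 for axillary bud, and 170 and 108 for shoot apex. The closest unvernalized ACR of all belonged to axillary bud in 139 regions, to shoot apex in 88 and to leaf in 54, with 2 regions at equal distance from more than 1 list. The same measure in regions lost in all 3 tissues gave a median of 1480 bp (1037 to 1921 bp) to the closest vernalized ACR and of 1212 bp (811 to 1663 bp) to the closest unvernalized ACR outside the region, and these intervals overlap.

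At the edge of the rule, 11 co-gained regions had an unvernalized ACR within 50 bp, and 45 within 200 bp. The closest were on chromosome 5A from 479227969 to 479228787, with an ACR of axillary bud 1 bp away, on 4D from 208396608 to 208397215, with an ACR of leaf 3 bp away, and on 5B from 550911020 to 550912169, with an ACR of leaf 9 bp away. The common stretches of these 3 regions were 65, 92 and 112 bp. Just outside the rule were merged regions in which an unvernalized ACR overlapped the vernalized ones by little: 2 regions by at most 50 bp, 7 by at most 100 bp and 34 by at most 200 bp, of the 47335 regions called in all 3 vernalized and some unvernalized list. The least overlap was 41 bp on chromosome 3B from 644162922 to 644163497, 48 bp on 3A from 23370499 to 23372097 and 68 bp on 4B from 562936109 to 562936624. In each of these the unvernalized ACR came from shoot apex.

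At the other end stood the regions farthest from any unvernalized ACR. The first lay on chromosome 3A from 364529509 to 364530020, with the closest unvernalized ACR 334791 bp away. Vernalized leaf covered 512 bp of it, vernalized axillary bud 250 bp and vernalized shoot apex 350 bp, and 250 bp were common to the 3 lists. The next, on 2A from 323009137 to 323011086, was 322770 bp away from an unvernalized ACR, and vernalized leaf covered all 1950 bp of it while axillary bud and shoot apex covered 350 bp each. On 7A, the region from 130893290 to 130893715 was 277626 bp from an unvernalized ACR, with 415 bp covered in vernalized leaf and 250 bp in each of the other vernalized tissues. It was also 277075 bp from any other vernalized ACR. The remaining regions were on 3A at 731516178 to 731516624, 265753 bp from an unvernalized ACR, and on 2A at 643221284 to 643221890, 213556 bp from one. In 4 of these 5 regions another vernalized ACR was much closer than any unvernalized one, at 253 to 1106 bp. The region on 2A at 643221284 had no stretch common to the 3 lists.

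The surroundings were then counted, to see whether accessibility differed beyond the regions themselves. Between 1 and 100 kb from the co-gained regions, vernalized leaf had 4.99 ACRs per region and unvernalized leaf 4.47, a ratio of 1.12 (1.03 to 1.21, counting error only). Axillary bud had 6.56 per region when vernalized and 5.74 when unvernalized (ratio 1.14, 1.07 to 1.22), and shoot apex 6.19 and 5.53 (ratio 1.12, 1.04 to 1.20). The whole lists gave ratios of 0.980 in leaf, 1.17 in shoot apex and 0.991 in axillary bud. Around regions called in all 6 lists the ratio was 0.983 in leaf (0.977 to 0.989), 1.04 in shoot apex (1.04 to 1.05) and 1.03 in axillary bud (1.03 to 1.04). Around regions lost in all 3 tissues it was 0.951 in leaf (0.875 to 1.03), 1.12 in shoot apex (1.04 to 1.21) and 0.996 in axillary bud (0.929 to 1.07). The surroundings of co-gained regions thus had more vernalized than unvernalized ACRs in every tissue. The ratio was above that around regions called in all 6 lists in leaf and axillary bud. In shoot apex those intervals overlapped and the whole lists had the higher ratio. Regions lost in all 3 tissues had the same shoot apex ratio, so there it was not particular to co-gained regions. Windows of neighbouring regions overlap, so the intervals are too narrow, and the lists are those that chose the regions.

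Over the 3 tissues together, 179 of the 279 co-gained regions (64.2%, 58.4% to 69.6%) had more vernalized ACRs around them, 66 (23.7%, 19.0% to 29.0%) had more unvernalized ACRs, and 34 had equal numbers. Of the regions called in all 6 lists, 47.2% (46.7% to 47.7%) had more vernalized and 37.6% (37.1% to 38.1%) more unvernalized ACRs. Regions lost in all 3 tissues were close to these, with 46.7% (40.7% to 52.8%) and 38.1% (32.4% to 44.2%). No ACR at all was called around 3 co-gained regions in the vernalized lists and around 14 in the unvernalized lists. The difference was thus spread over many regions. The pooled ratio was 1.13 with all of them and 1.13 without the 5 regions that had most ACRs around them. The whole lists pooled gave 1.04. With lists of equal size the pooled ratio around the regions fell to 1.06 (1.02 to 1.11), so its size depends on list size.

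By distance, the point values were highest close to the regions, although the intervals of the first and second distance bands overlapped in each tissue. From 1 to 10 kb leaf had a ratio of 1.21 (1.04 to 1.41), axillary bud one of 1.17 (1.01 to 1.34) and shoot apex one of 1.13 (0.979 to 1.31). From 10 to 100 kb it was 1.09 (0.992 to 1.19), 1.13 (1.05 to 1.23) and 1.12 (1.03 to 1.21) in the same order of tissues. From 100 to 1000 kb it was 0.977 (0.947 to 1.01), 1.07 (1.04 to 1.10) and 1.09 (1.06 to 1.13). At this distance regions called in all 6 lists had ratios of 0.966, 1.05 and 1.10, within the intervals of the co-gained regions. Split by position, the ratio from 1 to 100 kb in axillary bud was 1.25 (1.14 to 1.36) around the 129 co-gained regions in the outer 10% at either chromosome end and 1.00 (0.903 to 1.12) around the other 150. Around regions called in all 6 lists it was 1.10 in the outer parts and 0.946 elsewhere. In shoot apex the order was the other way, with 1.08 (0.990 to 1.18) in the outer parts and 1.20 (1.06 to 1.34) elsewhere, and the intervals overlapped. Around regions called in all 6 lists shoot apex had 0.965 in the outer parts and 1.19 elsewhere. In leaf the ratio was 1.13 (1.02 to 1.26) in the outer parts and 1.09 (0.972 to 1.23) elsewhere, and these intervals overlapped. Around regions called in all 6 lists leaf had 0.969 in the outer parts and 1.00 elsewhere. The order of outer parts and the rest was thus the same around both sets of regions in axillary bud and shoot apex. In leaf the point values had opposite orders.

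**Figure D3:**
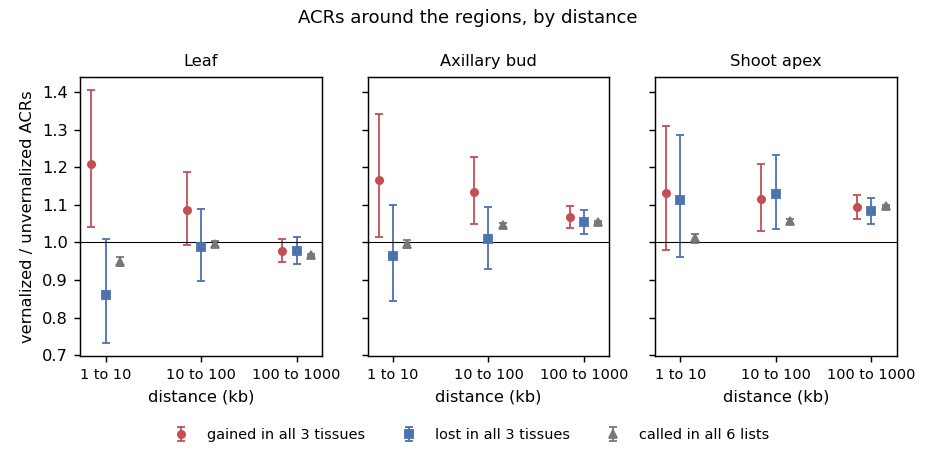
Ratio of vernalized to unvernalized ACRs around regions gained in all 3 tissues (279), lost in all 3 tissues (257) and called in all 6 lists (36158), by distance from the region in kb and by tissue. Bars are 95% exact intervals that cover counting error only; the red points for co-gained regions are at 1.21, 1.17 and 1.13 from 1 to 10 kb and at 0.977, 1.07 and 1.09 from 100 to 1000 kb.

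Co-gained regions were found on all 21 chromosomes. Chromosome 4D carried the most, 20 regions (exact Poisson interval 12.2 to 30.9), and 5 chromosomes (1B, 1D, 4A, 6A and 7A) the fewest, 9 each (4.12 to 17.1). These intervals overlap. Relative to the merged regions of a chromosome, there were 17.8 per 10000 on 4D (10.9 to 27.5) and 6.34 per 10000 on 7A (2.90 to 12.0). Chromosome 4D has few merged regions (11247) for its number of co-gained ones, whereas 2D, with 16903 merged regions, had 15. Chromosome 1B had the fewest merged regions, 9310, and 9.67 co-gained ones per 10000 (4.42 to 18.4). The first of its co-gained regions lay at 37.1% of its length. The share of all merged regions before that position is not given here, so this is not a trait particular to co-gained regions.

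The sub-genomes shared the regions nearly as they share all merged regions. The D sub-genome held 98 co-gained regions (35.1%, 29.8% to 40.9%), A held 91 (32.6%, 27.4% to 38.3%) and B held 90 (32.3%, 27.0% to 38.0%). Of all merged regions 34.6% were on D, 32.7% on A and 32.7% on B, each within the interval of the co-gained share. Per length, D had 24.8 co-gained regions per Gb, A 18.4 and B 17.4. All merged regions had the same order, with 25355.5 per Gb on D, 19165.5 on A and 18259.1 on B, so the higher density on D was not particular to co-gained regions. Regions lost in all 3 tissues had 37.7% (32.04% to 43.8%) on D.

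By homoeologous group, the set of 3 chromosomes that descend from 1 ancestral chromosome, group 5 held 53 co-gained regions, group 4 held 45, group 2 held 44, group 3 held 42, group 6 held 34, group 7 held 31 and group 1 held 30. Set against the merged regions, groups 4 and 5 had the most, 12.3 and 11.9 per 10000, and group 7 the fewest, 7.12 per 10000. The split within a group had its widest range in group 4, with 20 regions on 4D, 16 on 4B and 9 on 4A, followed by group 3, with 19 on 3A, 13 on 3D and 10 on 3B. In group 5 there were 19 on 5D, 19 on 5B and 15 on 5A.

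**Figure D4:**
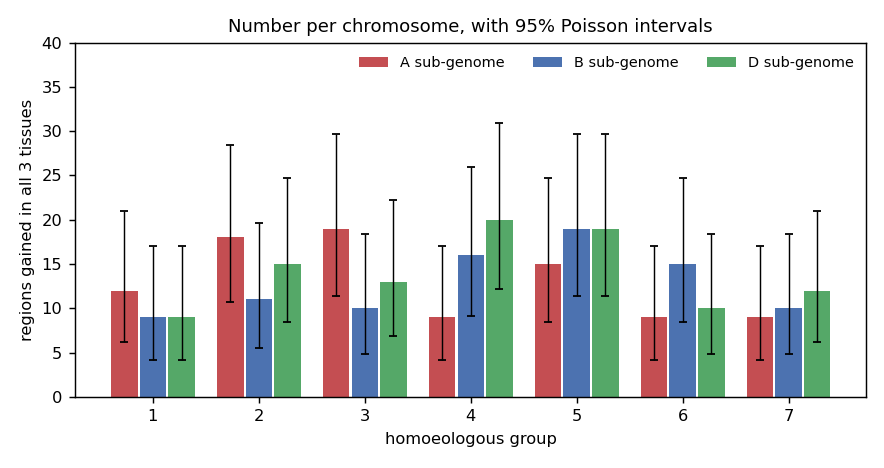
Number of co-gained regions on each of the 21 chromosomes, grouped by homoeologous group and coloured by sub-genome (bars with 95% exact Poisson intervals). Counts range from 9 to 20, with the highest bar on 4D, and the intervals of all bars overlap.

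Whether gains fell at matching places of homoeologous chromosomes was described by relative position, that is, distance from the chromosome start as a share of its length. Of the 279 co-gained regions, 86 (30.8%, 25.7% to 36.5%) had a co-gained region within 2% of that position on both other chromosomes of the group. Another 113 (40.5%, 34.9% to 46.4%) had one on 1 of them and 80 (28.7%, 23.7% to 34.2%) on neither. Among regions lost in all 3 tissues, 55 of 257 (21.4%, 16.8% to 26.8%) matched on both, 116 on 1 and 86 on neither. The measure grows with the number of regions and with their crowding at chromosome ends, and it takes no account of sequence, inversions or translocations. It therefore gives closeness in position, and homology was not tested.

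Co-gained regions lay more often towards the chromosome ends. The outer 10% at either end held 129 of them (46.2%, 40.5% to 52.1%), against 37.96% (37.8% to 38.1%) of all merged regions, 37.9% (37.4% to 38.4%) of regions called in all 6 lists and 33.9% (28.3% to 39.8%) of regions lost in all 3 tissues. The middle 30% held 35 (12.5%, 9.16% to 16.9%), against 18.5% (18.4% to 18.7%) of all merged regions. Vernalized leaf had 34.8% of its whole list in the outer parts, vernalized axillary bud 39.7% and vernalized shoot apex 40.8%, the last within the interval of the co-gained share. Of the unvernalized lists, leaf had 36.0%, axillary bud 35.2% and shoot apex 46.8%, so the shoot apex lists differed in position between conditions, and its part in the share was not tested. Of single bins of 10%, the last held 79 co-gained regions (28.3%, 23.4% to 33.9%), against 22.1% of all merged regions. The first held 50 (17.9%, 13.9% to 22.8%), an interval that contains the 15.9% of all merged regions. Both shares were thus above those of all merged regions, but only in the last bin did the interval exclude that value. The first and last bins were not compared with each other. When the 124 co-gained regions with an unvernalized ACR within 1 kb were left out, the outer share was 41.3% (33.8% to 49.2%), and this interval contains the 37.96% of all merged regions.

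**Figure D5:**
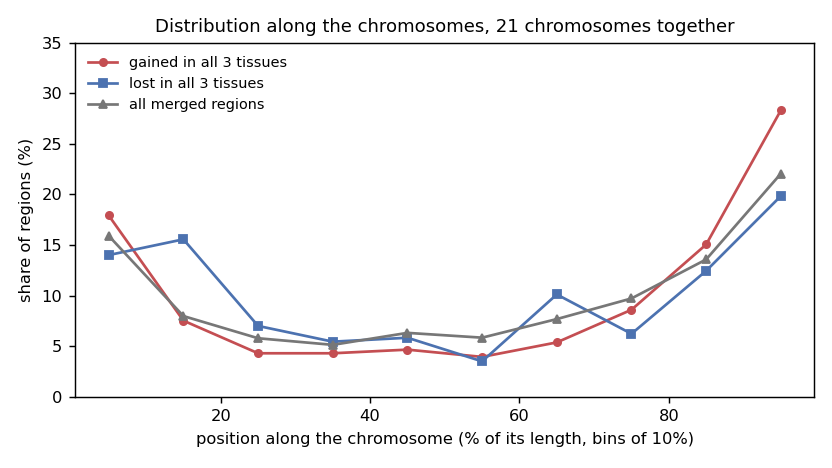
Share of regions in each 10% of chromosome length, over the 21 chromosomes together, for regions gained in all 3 tissues (279), lost in all 3 tissues (257) and all merged regions (289328). The co-gained regions have 17.9% in the first and 28.3% in the last bin, against 15.9% and 22.1% of all merged regions; the interval of the first bin contains the value of all merged regions.

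The sub-genomes did not share this equally. On B, 52.2% of co-gained regions (42.0% to 62.2%) lay in the outer parts, against 36.3% of all merged regions of that sub-genome. On A the shares were 48.4% (38.4% to 58.5%) and 38.6%, which lies inside the interval. On D they were 38.8% (29.7% to 48.7%) and 38.9%. Chromosome by chromosome, the co-gained share exceeded that of merged regions on 6 of the 7 chromosomes of A, on 6 of B and on 2 of D. The difference between sub-genomes itself was not tested, and the intervals of B and D overlap. Chromosome 4A, with 1 of 9 regions in its outer parts, and 4B, with 11 of 16, were the extremes.

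Most co-gained regions had no other co-gained region within 1 Mb. The closest other one was at a median of 13.1 Mb, and 30 regions had one within 1 Mb, 12 within 100 kb and 4 within 10 kb. Whether they lay closer together than an even placement would give was not tested. The closest pair lay 3716 bp apart on chromosome 6B, from 635179522 to 635180412 and from 635184129 to 635185113. Of the first, vernalized leaf covered 250 bp, vernalized axillary bud 550 bp and vernalized shoot apex 850 bp. Of the second, vernalized leaf covered 725 bp, vernalized axillary bud 650 bp and vernalized shoot apex 236 bp, so that the tissue order was opposite in regions a few kb apart. At the other extreme, the region of the same chromosome with the 550 bp common stretch was 364 Mb from the nearest other co-gained region.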

How the data were processed

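ATAC-seq reads were processed by the authors. Per the labels and the published methods they used fastp 0.21.0, Bowtie2 2.3.5.1 on IWGSC RefSeq v1.0, SAMtools 1.3.1, Picard 2.16.0, MACS2 2.2.6 and bedtools, divided peaks into overlapping bins, filtered the bins on Tn5 insertions and dropped peaks found in input or chloroplast sequence. The filters set ACR number and width. Whether replicates were pooled is not given in the sources used here. The deposited lists hold positions without a score, count or signal. No separate list of a replicate 2 sample or of input was analysed here.

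All ACRs were kept. Chromosome length was the end of the last ACR. Gaps count bases between a region and the closest ACR that does not overlap it; surroundings count ACR midpoints 1 to 100 kb away. Members, measures and named regions (the 5 with the longest common stretch, the 5 farthest from and 3 closest to an unvernalized ACR, the widest, the closest pair, and the 3 just outside the rule) were chosen with earlier results of these data known. Functions were tested on simulated data. Python 3.11.15, numpy 2.4.6, pandas 2.3.3, scipy 1.17.1 and matplotlib 3.10.9 were used.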

Additional observations from a re-analysis of the deposited data

How the results depend on the processing

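With 1 list per group no value has a replicate check, and depth is unknown. No paired analysis was possible because 1 list was analysed for each group, and no replicate could be left out. The outer share ranged from 41.3% to 51.5% over the 8 alternatives. Its interval contained the 37.96% of all merged regions of the main setting in 2 of them. These were without regions that had an unvernalized ACR within 1 kb (41.3%, 33.8% to 49.2%) and with vernalized ACRs of at least 500 bp (45.5%, 21.3% to 71.99%, 11 regions). In these 2 the share stayed above 37.96%, but its interval did not separate it from that value. Where an alternative changed the lists or their merging, its own merged regions were not the comparison. The intervals of such alternatives therefore do not show whether their share differed from their own background. Requiring a stretch common to the 3 vernalized lists left 242 regions, of which 61 were matched in position on all homoeologues, against 86 of the 279. Merging ACRs up to 200 bp apart gave a median distance to an unvernalized ACR of 2178 bp. Dropping regions with an unvernalized ACR within 1 kb left 155 regions, a median distance of 4911 bp and 28 regions matched in position on all homoeologues. Using vernalized ACRs of at least 500 bp alone left 11 regions, with covered medians of 649 bp (leaf), 650 bp (axillary bud) and 735 bp (shoot apex), 27.3% on D, a median distance of 428 bp and 0 regions matched in position. The surroundings were not counted there, as filtering 1 condition alone sets their ratio. With ACRs of at least 500 bp in all lists there were 125 regions, covered medians of 682, 750 and 750 bp, a median distance of 6154 bp and 23 matched regions. Lists of equal size gave 276 regions, a covered median of 450 bp in axillary bud, 29.3% on D, a median distance of 2165 bp and a ratio of 1.06 in the surroundings. Taking each stretch common to the 3 vernalized lists and free of unvernalized overlap gave 541 stretches, covered medians of 437 bp in leaf and 450 bp in axillary bud, a median distance of 318 bp and 316 matched stretches. Without the leaf lists 6070 regions were gained, with covered medians of 326 bp in shoot apex and 308.5 bp in axillary bud, a median distance of 2227.5 bp and 5824 matched regions, a number that rises with the size of the set. Distance bands, and leaving out the 5 regions with most ACRs around them, were added after the data were examined; over 100 to 1000 kb the ratio in the surroundings was 1.05. Filters on width or list size change which ACRs exist; the cause of other shifts was not tested.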

Other observations

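Gains common to the 3 tissues were also found inside broader regions that the rule leaves out. The 3 vernalized lists shared 55862 stretches, of which 541 (0.968%) were free of unvernalized overlap. Of these 541, 242 lay in co-gained regions, and 299 lay in merged regions that an unvernalized list called elsewhere along their length, 118 of them in regions called in all 6 lists. The 541 stretches had a median width of 174 bp. A wider accessible region and a different trimming of peak ends cannot be told apart from positions.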
